A study of Mus musculus with 4 samples.

Results

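The leukocyte adhesion set described here holds 9 genes, the integrin subunits Itgam, Itgb2, Itgal, Itgax, Itga4 and Itgb1, the integrin ligand Icam1, and the selectin-binding glycoproteins Selplg and Cd44. They were found by gene name among the 24706 genes of each expression table, where the 9 members took 10 rows because the name Itgam stands on 2 of them. RNA-seq was available for 4 libraries of mouse myeloid cells. Of these, 2 are labelled wt, which the study's figures give as a floxed Pdcd1 gene without Cre (PD-1f/f), and 2 carried the same floxed gene together with LysM-Cre (labelled cko). Cre is driven by the lysozyme M promoter, so that the deletion is meant for cells that express this gene, mainly granulocytes, monocytes and macrophages. The study's methods name RNA from livers at postnatal day 2 and wild-type controls, whereas its results name CD11b+ cells sorted from liver at postnatal day 3 and floxed controls. Whether a library came from 1 animal or a pool was not given, and p-values therefore measure only the spread between these libraries, which may be technical.

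Integrins are heterodimers of an α and a β subunit that bind ligands on other cells or in the matrix once intracellular talin and kindlin have switched them to the active form. In leukocytes Itgb2 (CD18) pairs with Itgal to form LFA-1, with Itgam (CD11b) to form Mac-1 and with Itgax (CD11c), and ICAM-1 is a ligand of these β2 integrins. Itga4 pairs with Itgb1 to form VLA-4, the receptor of VCAM-1 and fibronectin. Selectins mediate the rolling step that precedes firm adhesion, and leukocytes present PSGL-1 (Selplg) and glycosylated CD44 to them. CD44 is also the main receptor of hyaluronan.

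The promoters of 3 members are shown, since Icam1 gave the widest difference between the groups, Itgb1 had a high and a low library in each group, and Itgam encodes the antigen of the cell sort. RefSeq (GRCm38.p6) held windows for 6 of the 9 members, and no window was matched for Itgb2, Itgal and Selplg. Each is the plus strand of the 250 bases before the start, which for Icam1 is chr9:21015690-21015939, for Itgb1 chr8:128685404-128685653 and for Itgam chr7:128062390-128062639. Capitals mark matches on either strand to GGNNNTTCC, a κB-type motif, in Icam1 and Itgb1, and to GAGGAA, the core bound by PU.1, in Itgam.
Icam1: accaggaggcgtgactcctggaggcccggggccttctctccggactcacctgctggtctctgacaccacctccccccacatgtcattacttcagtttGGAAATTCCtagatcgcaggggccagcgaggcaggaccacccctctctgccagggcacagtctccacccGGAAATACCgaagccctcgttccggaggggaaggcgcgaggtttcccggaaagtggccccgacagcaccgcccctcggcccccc
Itgb1: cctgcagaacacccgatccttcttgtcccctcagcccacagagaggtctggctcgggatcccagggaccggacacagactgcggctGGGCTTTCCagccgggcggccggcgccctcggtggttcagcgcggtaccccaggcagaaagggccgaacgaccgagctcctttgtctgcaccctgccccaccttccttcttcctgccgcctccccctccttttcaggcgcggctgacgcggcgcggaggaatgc
Itgam: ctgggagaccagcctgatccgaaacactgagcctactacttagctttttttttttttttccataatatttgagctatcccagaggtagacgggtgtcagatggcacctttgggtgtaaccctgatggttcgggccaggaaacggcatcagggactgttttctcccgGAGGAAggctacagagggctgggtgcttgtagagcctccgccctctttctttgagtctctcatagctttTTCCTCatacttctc

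The Icam1 window held GGAAATTCC from position -153 relative to the start, and GGAAATACC, which matches on the reverse strand. One match was found for Itgb1 (GGGCTTTCC from position -164), and none in the windows of Itgam, Itgax, Itga4 and Cd44. Of all 32851 windows of this length, 15.7% held the κB-type motif. GAGGAA was found in Itgam from position -84 and again on the reverse strand, and also in Itgb1 and Cd44, against 23.3% of all windows. These matches describe letters and not binding.

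The libraries held 17691505 to 22212407 counted reads. The deposited values were FPKM, that is reads divided by the length of the gene and by the library total, and 1 read on a gene of 1 kb was worth 0.0450 to 0.0565 FPKM. As a check of the labels, Pdcd1 was at 28.5 and 34.7 FPKM in the wt libraries and at 17.1 and 21.4 FPKM in the cko libraries. Wt replicate 2 stood apart in sex-linked transcripts, with Ddx3y at 24.9 FPKM and Xist at 0.0119 FPKM, while in the other 3 libraries Ddx3y was at 0.00866 FPKM or less and Xist at 4.91 to 7.98 FPKM. Late neutrophil genes were the most abundant marker list, with sums of 55023 to 79050 FPKM, and the labels name myeloid cells. Erythroid markers summed to 3714 and 2334 FPKM in wt and to 1416 and 1515 FPKM in cko, although a CD11b sort would remove these cells. Monocyte markers summed to 611.3, 556.3 and 597.6 FPKM and reached 823.8 FPKM in cko replicate 2. No gene of the 12 marker lists that the tables name was at 0 in all libraries. In bulk samples, fewer cells of a type and less RNA per cell cannot be told apart.

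Among the 9 genes, Icam1, Selplg, Cd44 and Itgal were higher in both cko libraries than in both wt libraries, and the β2 subunit Itgb2 was nearly level. Icam1 differed most, at 6.68 times the wt mean, with 3.85-fold between its own cko libraries. Selplg and Cd44 were 1.67 and 1.77 times and Itgal 1.37 times the wt mean. Itgb1, Itga4 and Itgax overlapped between the groups, and Itgam was slightly lower in cko. The groups were compared with limma on log2(FPKM + 1) over the 10779 genes that averaged 1 FPKM or more, a scale on which changes of low genes are understated. All 9 members passed this filter, and the second row named Itgam did not. Itgax passed it only through cko replicate 2, so that a high value in that library was a condition of its being tested.

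No member passed the threshold of the study's methods (|log2FC| of at least 1 with an adjusted p under 0.05), which 0% of the tested genes passed. The smallest adjusted p over all genes was 0.129 by limma, and 1768 genes, or 16.4%, had an unadjusted p under 0.05. At the threshold of the study's results (|log2FC| above 1 with an unadjusted p under 0.01) 0 of 9 members were called, against 2.29% of all genes (1.88% higher and 0.408% lower in cko). An unadjusted p under 0.05 was found for 4 members, all 4 of them higher in cko, where the background was 11.4% higher and 4.95% lower. Both cko libraries lay above both wt libraries for 4 members and below them for 1, where the background was 33.6% above and 18% below. The fold change was above 0 for 8 of 9 members and for 60.4% of all genes. The members' median log2 fold change was 0.53, beside 0.09 over all tested genes, and it was 0.06 without cko replicate 2. That library held the highest value of 7 of the 9 members, as it did for 33.8% of all tested genes. Itgax is among these 7 and among the 8 above 0. Its high value in that library was a condition of its being tested.

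**Figure D1:**
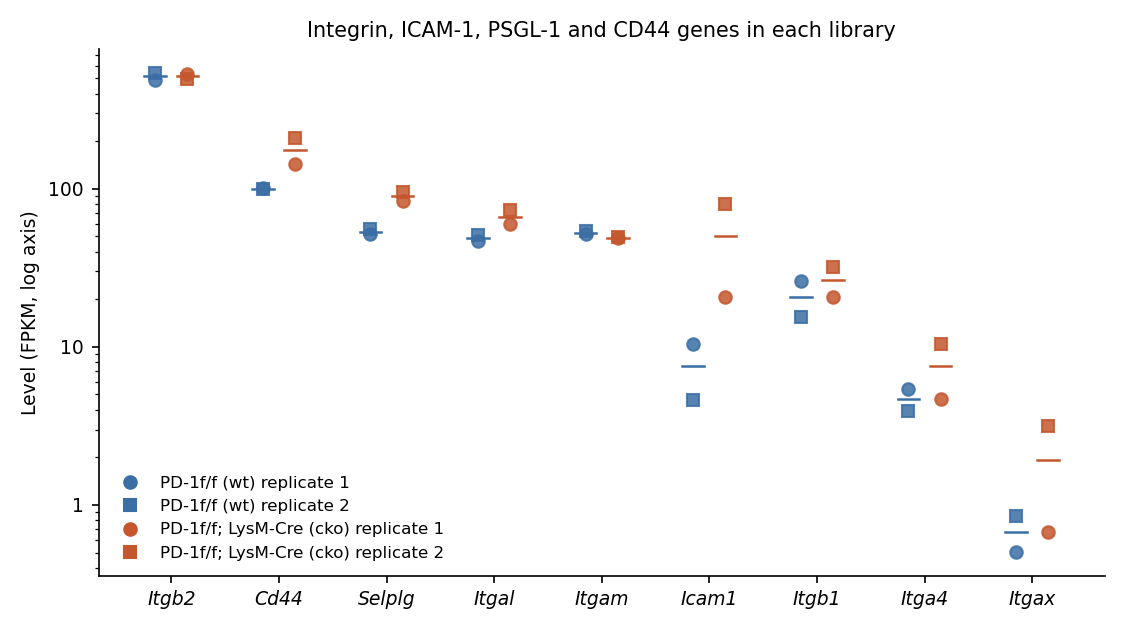
Level of each of the 9 genes in FPKM (log axis) in the 4 libraries, ordered by the mean over all 4 libraries; blue marks wt (PD-1f/f), orange cko (PD-1f/f with LysM-Cre), circles replicate 1, squares replicate 2 and short lines the group means. The cko points of Icam1, Selplg, Cd44 and Itgal lie above both wt points, and those of Itgb2 lie among them.

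By level, Itgb2 was the leading member, with rank 76 of the 10779 tested genes, followed by Cd44 with rank 315. In wt, Selplg (53.5 ± 2.54 FPKM, SD, n = 2) and Itgam (52.9 ± 2.05 FPKM, SD, n = 2) came next and were not separated by their spread, and Itgal (48.7 ± 3.06 FPKM, SD, n = 2) lay just below both. Itgb1 (20.8 ± 7.43 FPKM, SD, n = 2) was above Icam1 (7.54 ± 4.09 FPKM, SD, n = 2) and Itga4 (4.67 ± 1.06 FPKM, SD, n = 2), and the ranges of Icam1 and Itga4 overlapped. Itgax had the lowest level, with rank 9990. In cko the range of Icam1, from 20.7 to 79.9 FPKM, covered those of Itgam and Itgal and overlapped that of Itgb1. FPKM is per length, so that these orders compare genes on 1 scale, except for Itgam, whose length is in doubt as described with its values.

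The β2 subunit Itgb2, the common partner of the CD11 chains, is encoded on the plus strand of chr10:77530252-77565708 (GRCm38, ENSMUSG00000000290). It was at 490.9 and 538.9 FPKM in wt and at 535.9 and 497.0 FPKM in cko. The groups overlapped fully, and the highest and the lowest library differed by 1.10-fold. On the log2 scale the fold change was 0.00 with a standard error of 0.14 (limma adjusted p = 0.990). Its sign turned with the scaling, to -0.10 under median-of-ratios scaling. Counting error was small, with 26835 to 33276 reads per library. Itgb2l, which encodes a β2-like subunit and was picked here after its values were seen, was at 241.0 and 233.7 FPKM in wt and at 227.8 and 187.8 FPKM in cko.

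Itgal, the α subunit of LFA-1, lies on the plus strand of chr7:127296260-127335138 (ENSMUSG00000030830). Its level was 46.5 and 50.8 FPKM in wt and 60.3 and 73.1 FPKM in cko. Both cko libraries were above both wt libraries, and cko replicate 2 was the highest. The log2 fold change was 0.44 with a standard error of 0.16, at an unadjusted p of 0.0349 and an adjusted p of 0.273 by limma. Under median-of-ratios scaling the unadjusted limma p was 0.0773, and without cko replicate 2 the fold change was 0.31 (limma unadjusted p = 0.112). Without wt replicate 2 it was 0.50 (limma unadjusted p = 0.0888).

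Itgam, the α subunit of Mac-1, lies on the same strand at chr7:128062640-128118491 (ENSMUSG00000030786). Since its product CD11b was the antigen of the sort that the study's results describe, its level across these libraries is no finding. It was at 51.4 and 54.3 FPKM in wt and at 48.5 and 49.4 FPKM in cko. The cko libraries were lower, by little more than the spread within wt. This gave a log2 fold change of -0.11 with a standard error of 0.13 (limma adjusted p = 0.711). The fold change was 0.10 when erythroid and hepatocyte markers were removed and libraries then scaled to the same total FPKM. The main fit has no such scaling. Of the 5024 exon bases of Itgam, 3450 (68.7%) are shared with Gm49368 (ENSMUSG00000108596, chr7:128062683-128128160), a gene model on the same strand that the tables also name Itgam. Gm49368 was at 0.00937 and 0.0996 FPKM in wt and at 0.10 and 0.0353 FPKM in cko, from 1 to 9 reads per library, so that the shared reads were not counted for it. Whether they were counted for Itgam was not given. If they were not, Itgam stood at 164.1, 173.3, 154.8 and 157.8 FPKM per unshared base in wt replicates 1 and 2 and cko replicates 1 and 2, which moves its rank among the members but not its ratio between groups.

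Itgax encodes CD11c, an α subunit typical of dendritic cells and some macrophages and monocytes, on chr7:128129547-128150657 (ENSMUSG00000030789), so that all 3 CD11 genes lie on the plus strand of chromosome 7. It was at 0.506 FPKM (95% interval 0.380 to 0.660) and 0.852 FPKM (0.672 to 1.06) in wt replicates 1 and 2. In cko replicates 1 and 2 it was at 0.678 FPKM (0.518 to 0.870) and 3.17 FPKM (2.80 to 3.57). The intervals are exact binomial intervals for 54 to 269 reads out of the library total and cover counting error only. One library alone was high, and the other cko library lay between the wt libraries. The log2 fold change of 0.66 with a standard error of 0.47 (limma adjusted p = 0.505) was 0.01 without cko replicate 2. Dendritic cell markers summed to 2.71 and 3.55 FPKM in wt and to 3.05 and 2.05 FPKM in cko, whereas the monocyte sum given above was highest in cko replicate 2. The part of either cell type in the Itgax level was not tested.

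The VLA-4 subunits varied as much within the groups as between them. Itga4 (chr2:79255426-79333123, plus strand, ENSMUSG00000027009) was at 5.43 and 3.92 FPKM in wt and at 4.71 and 10.5 FPKM in cko. Cko replicate 2 was again the highest, and cko replicate 1 fell between the wt libraries. Itga4 had a log2 fold change of 0.53 with a standard error of 0.36 (limma adjusted p = 0.489) and 0.02 without cko replicate 2. Of its exon bases, 8.04% overlap Cerkl on the other strand, and whether reads were counted by strand was not given.

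Itgb1 (chr8:128685654-128733200, plus strand, ENSMUSG00000025809), the β subunit shared by many receptors of matrix proteins, was at 26.1 and 15.5 FPKM in wt and at 20.6 and 32.1 FPKM in cko. Each group had a high and a low library, and the wt libraries alone differed by 1.68-fold. For Itgb1 the log2 fold change was 0.34 with a standard error of 0.31 (limma adjusted p = 0.616), and its sign turned to -0.02 without wt replicate 2. Macrophage markers summed to 385.2 and 263.0 FPKM in wt and to 264.9 and 447.2 FPKM in cko. That sum had the order of Itgb1 over the libraries, with wt replicate 2 and cko replicate 1 nearly tied. Of its genes, only Cd5l and Marco had the order of Itgb1, and Clec4f, Vsig4, Timd4 and C1qb were highest in wt replicate 1. The part of macrophages in the level of Itgb1 was not tested.

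Icam1, the endothelial and leukocyte ligand of LFA-1 and Mac-1 that inflammatory cytokines induce, lies on the plus strand of chr9:21015985-21028817 (ENSMUSG00000037405), and its printed promoter carries the pair of κB-type matches. Its level was 10.4 FPKM (95% interval 9.80 to 11.1) and 4.64 FPKM (4.19 to 5.13) in wt replicates 1 and 2. In cko replicates 1 and 2 it was 20.7 FPKM (19.8 to 21.8) and 79.9 FPKM (77.9 to 81.9). Each cko library lay above both wt libraries, and no pair of libraries overlapped in counting error. The wt libraries differed by 2.25-fold and the cko libraries by 3.85-fold. The log2 fold change was 2.38 with a standard error of 0.66, at an unadjusted p of 0.0127 and an adjusted p of 0.223 by limma.

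This value rested on cko replicate 2 for its size and not for its sign. The log2 fold change of Icam1 was 1.44 without cko replicate 2 (limma unadjusted p = 0.0375) and 3.33 without cko replicate 1 (limma unadjusted p = 0.00188). Without wt replicate 2, the library with Y-linked transcripts, it was 1.88 (limma unadjusted p = 0.0843). The monocyte sum and Csf1r, the receptor that defines the monocyte and macrophage lineage, were also highest in cko replicate 2. Csf1r, which is given outside the naming rule, was at 40.9 and 33.0 FPKM in wt and at 45.6 and 112.9 FPKM in cko. Ly6c2, the most abundant gene of the monocyte list, went the other way, at 343.0 and 359.9 FPKM in wt and at 333.3 and 314.7 FPKM in cko. Endothelial and stromal markers, which mark cells that can carry ICAM-1, summed to 38.8 and 35.6 FPKM in wt and to 32.9 and 37.0 FPKM in cko. Lyve1, at 13.6 to 19.7 FPKM, made up much of that sum. Of the 9 tested genes of the list, 4 were higher and 5 lower in cko. Stab2 was at 0.319 and 0.315 FPKM in wt and at 3.61 and 4.76 FPKM in cko. Cdh5 was at 2.73 and 1.39 FPKM in wt and at 1.14 and 0.995 FPKM in cko. Kdr and Pecam1 had log2 fold changes of 0.03 and 0.13. Sele, an endothelial gene outside this list, was at 0.108 and 0.0730 FPKM in wt and at 0.861 and 1.63 FPKM in cko. The part of monocytes or of endothelial cells in the Icam1 level was not tested. Of the exon bases of Icam1, 11.7% are shared with the antisense gene Gm47079.

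**Figure D2:**
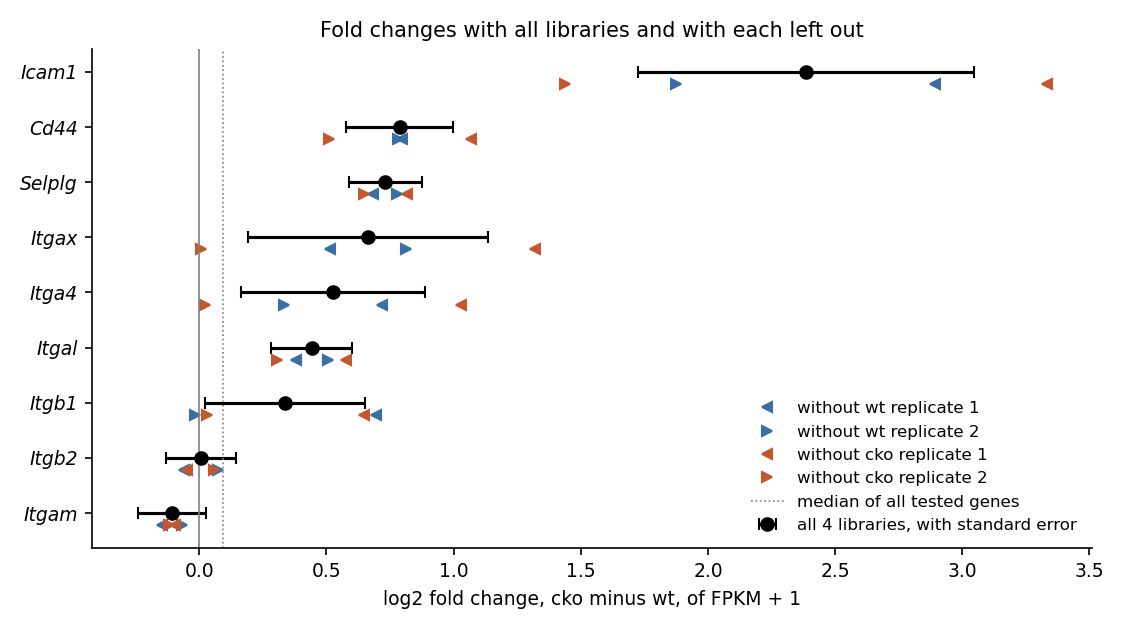
Log2 fold change of FPKM + 1 (cko minus wt) of the 9 genes on the x axis, with black points and bars for all 4 libraries and their standard error from limma, triangles for the fit without 1 library, and a dotted line at the median of all tested genes, 0.09. Icam1 stays above 1.4 in every fit shown, while Itgax and Itga4 lie near 0 without cko replicate 2.

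PSGL-1, the main selectin ligand of myeloid cells, is encoded by Selplg on the minus strand of chr5:113818536-113832644 (ENSMUSG00000048163). Selplg was at 51.7 and 55.3 FPKM in wt and at 84.3 and 94.9 FPKM in cko. The groups were well apart, with 1.07-fold between the wt libraries and 1.13-fold between the cko libraries. A log2 fold change of 0.73 was found with a standard error of 0.14, and the unadjusted p of 0.00269 was the lowest of the 9 genes (limma adjusted p = 0.199). Leaving out each library in turn gave 0.65 to 0.82, and without wt replicate 2 Selplg was the only member with an unadjusted p under 0.05 (limma unadjusted p = 0.0189).

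Cd44, which encodes the hyaluronan receptor and E-selectin ligand CD44, lies on the minus strand of chr2:102811141-102901665 (ENSMUSG00000005087). It was at 100.5 and 99.3 FPKM in wt and at 142.7 and 210.5 FPKM in cko. Both cko libraries were higher than both wt libraries, which were nearly equal, and cko replicate 2 was 1.48 times cko replicate 1. Its log2 fold change was 0.79 with a standard error of 0.21, at an unadjusted p of 0.0109 and an adjusted p of 0.216 by limma. It was 0.51 without cko replicate 2, 1.07 without cko replicate 1 (limma unadjusted p = 0.00136) and 0.78 without wt replicate 2 (limma unadjusted p = 0.0619). The gene has many splice forms, and these tables hold 1 value per gene.

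The proportions between subunits do not depend on the scaling of a library. Itgb2 stood at 9.55 to 11.05 times the level of Itgam, although Itgam counted per unshared base was 0.289 to 0.334 of Itgb2. Itgb2 was at 10.6 and 10.6 times Itgal in wt against 8.88 and 6.80 times in cko. The log2 ratio of Itgal to Itgb2 was -3.40 and -3.41 in wt and -3.15 and -2.77 in cko, a difference of 0.44. The log2 ratio of Itgam to Itgb2 was -3.26 and -3.31 in wt and -3.47 and -3.33 in cko, a difference of -0.11. The balance of the Mac-1 and LFA-1 α chains, as the log2 ratio of Itgam to Itgal, was 0.14 and 0.10 in wt and -0.31 and -0.56 in cko. Itgam was thus above Itgal in both wt libraries and below it in both cko libraries. Counted per unshared base, Itgam stayed above Itgal in each library, with log2 ratios of 1.82 and 1.77 in wt and 1.36 and 1.11 in cko.

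Among the 3 CD11 chains, Itgam took 52.2% and 51.2% of the summed FPKM in wt and 44.3% and 39.3% in cko, or, counted per unshared base, 77.7% and 77.0% in wt and 71.7% and 67.4% in cko. The cko mean of the first share minus its wt mean was -9.92 percentage points, and CD11b was the antigen of the described sort. Itgax was 157.0- to 969.8-fold below Itgb2, with log2 ratios of -9.92 and -9.31 in wt and -9.63 and -7.29 in cko. The log2 ratio of Itga4 to Itgb1 was -2.26 and -1.99 in wt and -2.13 and -1.62 in cko, where the groups overlapped. Itgb1 was 15.5- to 34.7-fold below Itgb2, and the log2 ratio was -4.24 and -5.12 in wt and -4.70 and -3.95 in cko. Of the 7 proportions, 4 did not overlap between the groups. In an exact two-sided permutation test over the 4 libraries these 4 reached p = 0.333, the smallest p that this design allows, with an adjusted p of 0.583 over the 7 proportions, and the other 3 had p = 0.667.

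**Figure D3:**
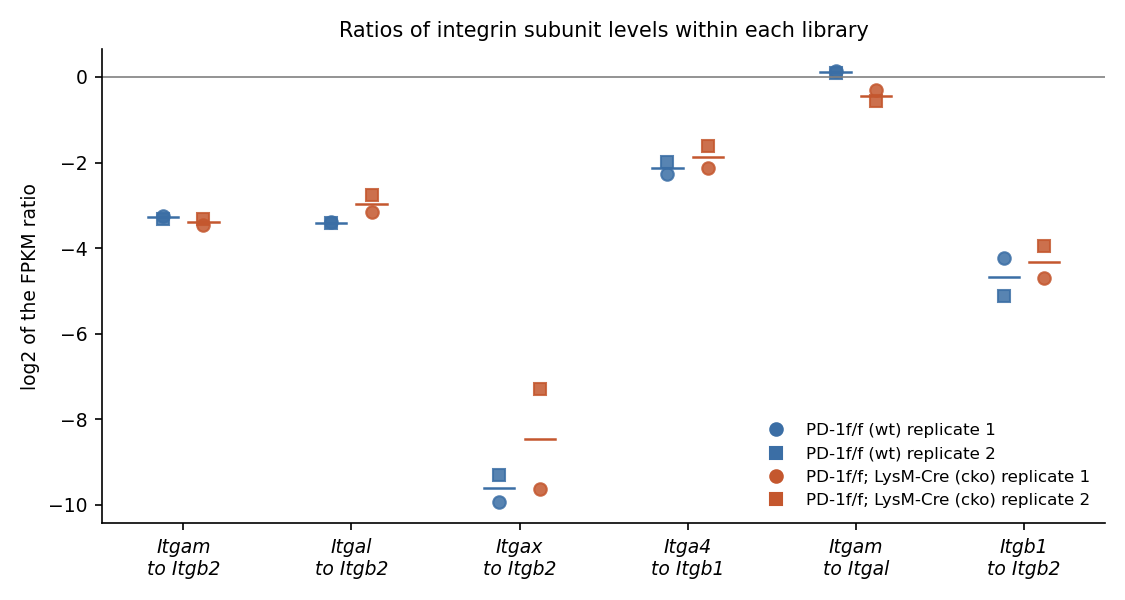
Log2 ratio of 2 subunits' FPKM within each library, with blue for wt, orange for cko, circles and squares for replicates 1 and 2 and lines for group means; the grey line marks equal levels. Itgal to Itgb2 is higher in both cko libraries than in both wt libraries, and Itgam to Itgal passes from above to below the line, which it does not when Itgam is counted per unshared base (1.11 to 1.82, not drawn).

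The other genes of the adhesion system were taken in 7 lists by role. Of 135 listed genes, 130 were named in the tables, and 93 averaged 1 FPKM or more and were tested. Of the 93 genes 2 (2.15%), Itga5 and Stab2, were past the threshold of |log2FC| above 1 with an unadjusted p under 0.01, both higher in cko. The background was 1.88%, but Stab2 passed the filter on low values only through the cko libraries, so that nothing is read from this share. At an unadjusted p under 0.05, 15 genes (16.1%) were higher and 3 (3.23%) lower in cko, where the background was 11.4% and 4.95%. Both cko libraries were above both wt libraries for 35 genes (37.6%) and below them for 20 (21.5%). Both shares are near the background of 33.6% and 18%. The median log2 fold change over the 93 genes was 0.13, beside 0.09 for all tested genes.

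Of the other integrin subunits, 7 of 18 in the tables were tested, with 4 higher and 3 lower in cko and a median log2 fold change of 0.06. Itga5, the α chain of the fibronectin receptor that pairs with Itgb1, was at 2.41 and 2.68 FPKM in wt and at 11.1 and 24.0 FPKM in cko. Its log2 fold change was 2.29 with a standard error of 0.35 (unadjusted p = 8.64e-04, limma adjusted p = 0.183). Unlike its partner Itgb1, Itga5 was apart between the groups. Itgb7, which pairs with Itga4 to bind MAdCAM-1, was at 10.1 and 13.1 FPKM in wt and at 20.3 and 22.7 FPKM in cko (log2 fold change 0.85, limma unadjusted p = 0.00425). Itgb3, the β chain of the vitronectin receptor and of the platelet fibrinogen receptor, was at 3.84 and 4.93 FPKM in wt and at 5.41 and 3.87 FPKM in cko. Itga6, Itgav, Itga2b and Itga8 were also tested, each with an unadjusted p over 0.05 by limma, and the others of this list, among them Itgad and Itgae, had a mean under 1 FPKM.

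Selectins and ligands of the immunoglobulin type held 8 tested genes, 5 higher and 3 lower in cko, none with an unadjusted p under 0.05 by limma and with a median of 0.07. Icam2 was at 4.54 and 4.58 FPKM in wt and at 4.29 and 3.98 FPKM in cko, and so did not share the wide range of Icam1. F11r, which encodes the junctional adhesion molecule JAM-A, was at 3.13 and 3.97 FPKM in wt and at 7.39 and 3.35 FPKM in cko. E-selectin (Sele) was under the filter, at 0.108 and 0.0730 FPKM in wt and 0.861 and 1.63 FPKM in cko.

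The enzymes that build the sugars by which PSGL-1 and CD44 bind selectins held 15 tested genes, of which 8 were higher and 7 lower in cko, with a median of 0.04. St3gal4, the sialyltransferase that caps selectin ligands of myeloid cells, was at 12.6 and 15.0 FPKM in wt and at 20.6 and 26.4 FPKM in cko (log2 fold change 0.72, limma unadjusted p = 0.01001). C1galt1c1 encodes the chaperone Cosmc, which core O-glycans need, and was lower in cko, at 46.3 and 40.4 FPKM in wt and 24.6 and 31.1 FPKM in cko (log2 fold change -0.63, limma unadjusted p = 0.0137). Glg1, whose product ESL-1 binds E-selectin, was at 6.57 and 9.16 FPKM in wt and at 13.1 and 10.5 FPKM in cko (log2 fold change 0.54, limma unadjusted p = 0.0499). The tyrosine sulphotransferase Tpst2, which modifies PSGL-1, was at 72.7 and 75.7 FPKM in wt and at 63.9 and 51.7 FPKM in cko (log2 fold change -0.36, limma unadjusted p = 0.0672). B4galt1 was at 56.2 to 61.0 FPKM in wt and at 57.2 to 71.6 FPKM in cko. The genes of this list thus did not follow Selplg in 1 direction.

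**Figure D4:**
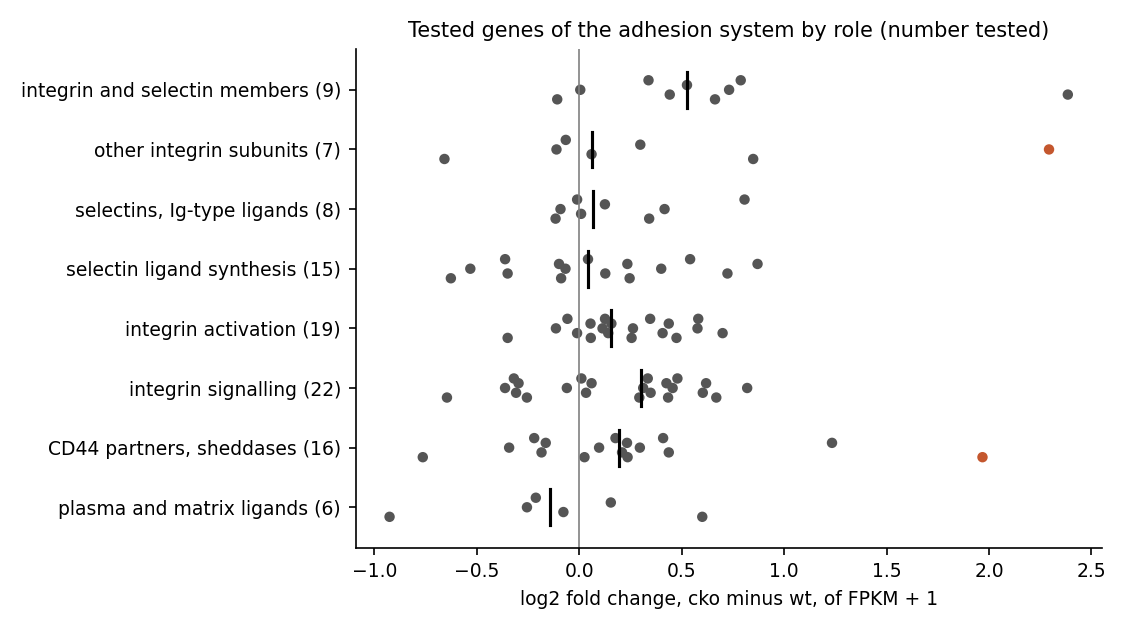
Log2 fold change of FPKM + 1 (cko minus wt) of each tested gene of the 9-gene set and of the 7 lists of other adhesion genes, with the number tested in brackets, a black bar at each median and orange points for the genes called at |log2FC| above 1 (unadjusted p under 0.01). The 2 orange points are Itga5 at 2.29 and Stab2 at 1.97, and the list medians lie between -0.14 and 0.30.

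The genes that switch integrins to the active form had a median of 0.16, with 15 of 19 tested genes higher (60.4% of all genes) and 10 of 19 above both wt libraries in both cko libraries (33.6% of all genes). The median was 0.052 under median-of-ratios scaling and 0.062 under quantile scaling. That of all tested genes moved too, from 0.09 to 0.0014 and to -0.024. Fyb, which encodes the adaptor ADAP, was at 39.5 and 41.3 FPKM in wt and at 58.2 and 75.3 FPKM in cko (log2 fold change 0.70, limma unadjusted p = 0.00781). Apbb1ip, whose product RIAM links Rap1 to talin, had a log2 fold change of 0.58 (limma unadjusted p = 0.0257), and Cyth4 one of 0.47 (limma unadjusted p = 0.0362). The most abundant genes of the list were nearly level. Kindlin-3 (Fermt3) had a log2 fold change of -0.06, Rassf5 0.06 and filamin A (Flna) 0.06.

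Genes that signal downstream of bound integrins had a median of 0.30, with 15 of 22 tested genes higher in cko (60.4% of all genes), 6 of them with an unadjusted p under 0.05 by limma (11.4% of all genes). This median was 0.10 without wt replicate 1, 0.20 without cko replicate 1 and 0.18 by voom. The median of all tested genes was then 0.07, 0.09 and 0.13. For the list it was 0.14 under quantile scaling, 0.20 under median-of-ratios scaling and 0.035 with no filter. Over all tested genes it was then -0.024, 0.0014 and 0.039. Lcp2 (SLP-76) was at 57.3 and 58.3 FPKM in wt and at 74.9 and 114.2 FPKM in cko (log2 fold change 0.67, limma unadjusted p = 0.0261). The actin crosslinker Actn1 was the single gene lower in cko at this level, at 9.88 and 15.8 FPKM in wt and 8.61 and 6.76 FPKM in cko (log2 fold change -0.65, limma unadjusted p = 0.0492). Parvg, the parvin of leukocytes, was at 243.2 and 256.1 FPKM in wt and at 266.8 and 244.4 FPKM in cko. Fcer1g, an adaptor that carries signals to Syk, ranged from 115.3 to 297.1 FPKM within wt and from 156.8 to 348.4 FPKM within cko.

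Around CD44, 11 of 16 tested partners and sheddases were higher and 5 lower, with a median of 0.19. Stab2, a hyaluronan scavenger receptor typical of liver sinusoidal endothelium, was at 0.319 and 0.315 FPKM in wt and at 3.61 and 4.76 FPKM in cko, and passed the filter only through the cko libraries. Its log2 fold change was 1.97 with a standard error of 0.24 (unadjusted p = 2.65e-04, limma adjusted p = 0.183), while the endothelial and stromal marker sum, which holds Stab2, was not higher in cko. Serglycin (Srgn), a proteoglycan that CD44 binds, was at 143.8 and 104.2 FPKM in wt and at 181.5 and 460.5 FPKM in cko (log2 fold change 1.23, limma unadjusted p = 0.0343). Has2, a hyaluronan synthase, was lower in cko, at 4.96 and 4.83 FPKM in wt and 2.95 and 2.05 FPKM in cko (log2 fold change -0.76, limma unadjusted p = 0.0124). Moesin (Msn), which ties CD44 to actin, was at 185.6 and 183.1 FPKM in wt and at 199.9 and 236.1 FPKM in cko. Mmp9, a protease docked on CD44, was at 510.4 and 561.1 FPKM in wt and at 499.3 and 444.2 FPKM in cko.

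Ligands in plasma and matrix gave 2 tested genes higher and 4 lower, none with an unadjusted p under 0.05 by limma, and a median of -0.14. The complement gene C3, whose fragment iC3b binds Mac-1, was at 149.3 and 155.3 FPKM in wt and at 180.4 and 159.5 FPKM in cko. Fibronectin (Fn1), a ligand of VLA-4 and of the Itga5 receptor that also stands in the monocyte list, was at 8.60 and 5.82 FPKM in wt and at 7.73 and 16.3 FPKM in cko. Thrombospondin 1 (Thbs1) was at 266.5 and 244.2 FPKM in wt and at 190.7 and 239.1 FPKM in cko.

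Itgb1, Itga4 and Itgax varied within a group about as much as between the groups, and Icam1 varied 3.85-fold within cko but was apart between the groups. These 4 genes stand beside the marker sums in the plot of replicates and markers. The late neutrophil sum was 79050 and 78877 FPKM in wt and 70711 and 55023 FPKM in cko, with 9 of 10 genes lower in cko. Much of its fall lay in Camp, at 19301 and 17673 FPKM in wt and at 9260 and 7948 FPKM in cko. Ngp, its most abundant gene, overlapped between the groups, at 43779 and 43834 FPKM in wt and at 46573 and 35443 FPKM in cko. Monocyte markers were higher in cko for 9 of 10 genes. Of all tested genes, 60.4% were higher in cko. For 4 of the 10 monocyte markers, Csf1r included, both cko libraries were above both wt libraries. This share is near the 33.6% of all tested genes. Early neutrophil markers summed to 1768 and 1822 FPKM in wt and to 2523 and 1951 FPKM in cko. Hepatocyte markers summed to 79.9 and 128.7 FPKM in wt and to 50.1 and 61.0 FPKM in cko. How far these lists bear on the levels of Icam1, Selplg, Cd44 and Itgal was not tested.

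**Figure D5:**
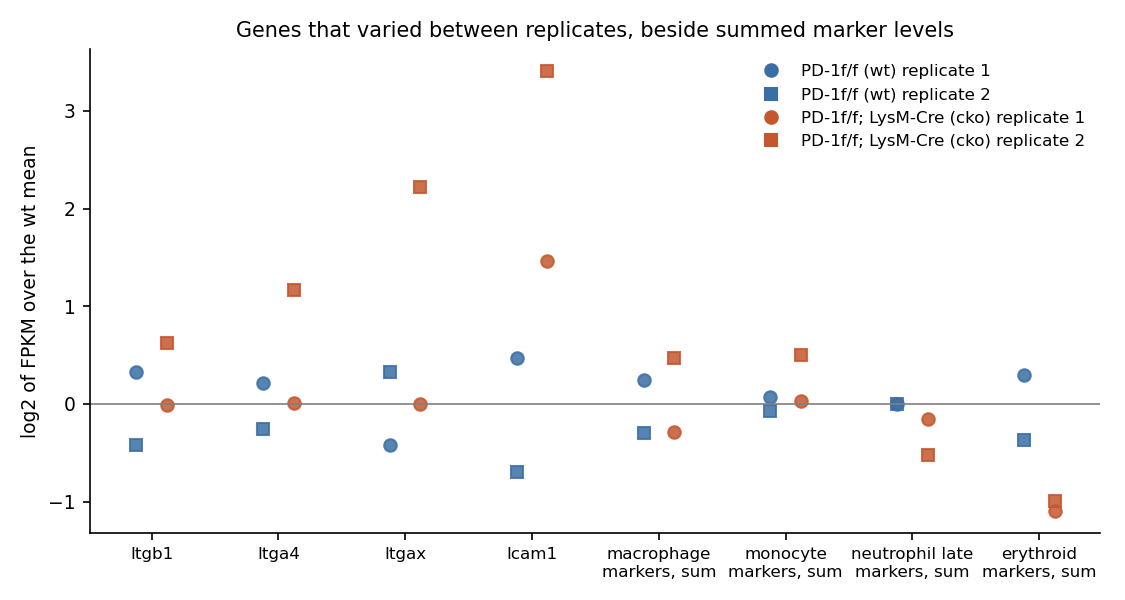
Log2 of FPKM over the wt mean for Itgb1, Itga4, Itgax and Icam1 and for the summed FPKM of 4 marker lists, with blue for wt, orange for cko, and circles and squares for replicates 1 and 2. Cko replicate 2 is the highest library for each of the 4 genes and for the macrophage and monocyte sums, and the lowest for the late neutrophil sum.

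The genes with the most similar profile over the 4 libraries were sought as the smallest root mean square difference of centred log2(FPKM + 1), a description over 4 points that share depth and cell makeup. For Icam1 these were Socs3, which encodes a brake on cytokine signalling (37.1 and 16.2 FPKM in wt, 65.3 and 216.5 FPKM in cko, difference 0.110), and the cytokine gene Il1b (98.1 and 43.2 FPKM in wt, 151.3 and 594.5 FPKM in cko, difference 0.115). For Itgb1 they were Creld2 and Cd5l, a gene of liver macrophages that was at 31.5 and 17.7 FPKM in wt and at 23.6 and 37.8 FPKM in cko. Selplg was nearest to Ripk3, and Cd44 to Rassf4 and Ift57. Itgal was nearest to Tspan31 and Zfp1, Itgax to Grk3 and Ccnd2, and Itga4 to Tnfrsf23 and Sema4d. Itgb2 and Itgam, which varied least, were nearest to Pgam1 and Asf1a and to Mcemp1 and Ubap1.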

How the data were processed

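RNA-seq libraries were grouped as wt (replicates 1 and 2) and cko (replicates 1 and 2) by the genotype in their labels. The authors deposited 1 FPKM value per gene and library for 24706 genes, not scaled between libraries. The submitters' processing notes name Bowtie2 2.2.3, TopHat2 2.0.12, HTSeq 0.6.0 and mm9, but 92.61% of the gene positions, and those of all 10 member rows, equal GENCODE M21 (GRCm38), which was used for positions. How reads shared by genes were counted and whether strand was used were not given in the sources used here. Reads were recovered from the FPKM steps for 91.29% of genes (whole within 0.02), and 95% intervals from them cover counting error only.

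Groups were compared in R 4.3.3 with limma 3.58.1 (lmFit, eBayes with a trend) on log2(FPKM + 1), keeping the 10779 genes that averaged 1 FPKM or more, and p-values were adjusted by Benjamini-Hochberg over all of them. The fit was tested on simulated data with the same dispersion for all genes and as many genes raised as lowered. That setting lacks the one-sided shift and the wide spread within cko seen here, so nothing is read from it. All members are named, and of each list the 3 genes with the highest mean FPKM, the 3 with the largest change at an unadjusted p under 0.05, and all past the threshold of |log2FC| above 1 with an unadjusted p under 0.01. Some genes that this rule names are not reported here. Members, lists and alternatives were chosen with earlier results of these data known. Alternatives were pseudocounts of 0.1 and 0.01, no filter, a minimum average of 5 FPKM, and quantile and median-of-ratios scaling. Another used the tables without erythroid or hepatocyte markers, with each library then scaled to the same total FPKM. The rest were no trend, a replicate block, leaving out each library, and voom on the reads of genes averaging 10 or more. Python 3.11.15 and matplotlib 3.10.9 were used for tables and figures.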

Additional observations from a re-analysis of the deposited data

How the results depend on the processing

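With 2 libraries per group and an adjusted p of 0.129 or more for each gene, no fold change here passed the threshold of the study's methods, and sizes that rest on cko replicate 2 are uncertain. Of 125 recomputed fold changes of the members, 115 kept their direction and their side of |log2FC| above 1 with an unadjusted p under 0.01, 4 newly passed it and 6 changed sign. Itgb2 (0.00) became -0.10 under median-of-ratios scaling, -0.13 under quantile scaling, -0.062 without wt replicate 1 and -0.049 without cko replicate 1 (range with each library left out -0.062 to 0.072). Itgam (-0.11) became 0.10 with erythroid and hepatocyte markers removed, a setting that also scaled each library to the same total FPKM. Itgb1 (0.34) became -0.017 without wt replicate 2 (range -0.017 to 0.69). The number of members past this threshold was 0, and 1 (Icam1) with those markers removed or by voom, and 0 to 2 with each library left out, with Icam1 at 3.33 and Cd44 at 1.07 without cko replicate 1. The members' median of 0.53 ranged from 0.059 to 0.82 with each library left out. The count of 2 other adhesion genes past it was 1 at a mean of at least 5 FPKM, 4 with markers removed, 1 by voom and 2 to 5 with each library left out.

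Over all genes, 247 passed it, 126 at a mean of at least 5 FPKM, where fewer genes were tested, and 131 to 462 with each library left out. At the adjusted threshold the count was 0, and 2 by voom, 0 with each library left out, and 1 with the crossed pairing as a block, which was added after the data were seen. Of the genes past the unadjusted threshold, 82.2% were higher in cko, and 68.6% under median-of-ratios scaling and 65.5% under quantile scaling. With markers removed and libraries scaled to the same total FPKM the share was 95.4%, and the median over all genes moved from 0.09 to 0.27. Total FPKM before this was 491983 and 457127 in wt and 412778 and 403900 in cko. Erythroid markers made up 3714, 2334, 1416 and 1515 FPKM of these. The parts of the removal and of the scaling were not tested. An unadjusted p under 0.05 by limma was found for 4 members, and for 3 under median-of-ratios scaling, under quantile scaling, with no trend and with the replicate block. Leaving out a library moved this count in both directions. The difference of replicates 1 and 2 in wt had a correlation of -0.16 across genes with that in cko. This cannot tell whether samples were prepared in pairs, since wt replicate 2 also differed in sex-linked transcripts. With the replicate block, 258 genes and no member were past the threshold, and Itgal had a limma unadjusted p of 0.0687. No member passed the adjusted threshold either. Of 150 recomputed proportions, list medians and counts of members at an unadjusted p under 0.05, 39 moved. A proportion counted as moved if its difference shifted by the pooled SD within groups or more, which leaving out a library cannot bring about. The difference for Itgax to Itgb2 thus counted as unmoved, at 1.15 with all libraries and -0.014 without cko replicate 2. So did that for Itgb1 to Itgb2, at 0.35 with all libraries and -0.091 without wt replicate 2. Other causes were not tested. Itgax had no value at a mean of at least 5 FPKM.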
